A study of Mus musculus with 17 samples.

Results

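The response of the left ventricle to pressure overload was described in 14 of the 17 libraries of the series, 8 from hearts with transverse aortic constriction (TAC) and 6 from Sham-operated hearts, with both treatments pooled. The members were chosen by measured values: libraries S18, S19 and S20 were left out for high Sln, Myl7 and Myl4, which encode proteins of atrial muscle (sarcolipin and the atrial regulatory and essential myosin light chains), and all other libraries were kept. All mice were male C57Bl6/J with no engineered allele. In TAC a suture narrows the aorta and loads the left ventricle, and Sham controls had no such narrowing. Mice received 29P, an orally available peptide prodrug whose active form binds αvβ3 integrin, in 6 gavages of 50 μg/kg beginning 1 week after surgery, or saline (Veh). RNA was poly(A)-selected from the apex of the left ventricle 3 weeks after surgery, with 1 library for each animal number in the labels. The libraries kept were 5 TAC 29P (S1, S3, S8, S9, S11), 3 TAC Veh (S2, S12, S16), 3 Sham 29P (S4, S14, S15) and 3 Sham Veh (S5, S6, S13). Those left out were 1 TAC 29P (S18) and 2 Sham Veh (S19, S20).

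When the pressure against which the ventricle pumps rises, cardiomyocytes enlarge and return to a fetal programme in which natriuretic peptides, the slow myosin heavy chain and skeletal α-actin are made. Fibroblasts lay down collagens and matricellular proteins between the muscle cells, and the capacity to oxidise fatty acids declines. The natriuretic peptides ANP (Nppa) and BNP (Nppb) act on the kidney and vessels to lower blood volume and pressure, and Nppa is also a major product of healthy atria.

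The values used to choose the libraries are given as a description. In the 14 libraries kept, Sln did not exceed 0.626 CPM (the share of a library's counted reads, scaled to the same total in every library), Myl7 did not exceed 1.002 CPM and Myl4 did not exceed 4.43 CPM. S18 held 162 CPM of Sln, 335 CPM of Myl7 and 518 CPM of Myl4. S19 held 441, 895 and 1207 CPM of the same genes in that order, and S20 held 332, 723 and 978 CPM. No library lay between these levels. Bmp10, an atrial growth factor that the choice did not use, was at 514 CPM in S18, 0.179 CPM in S19 and 0 in S20, with a maximum of 0.224 CPM in the libraries kept. The left-out libraries make up the whole of the last run of animal numbers in the labels, so that what set them apart and that run cannot be told apart.

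**Figure D1:**
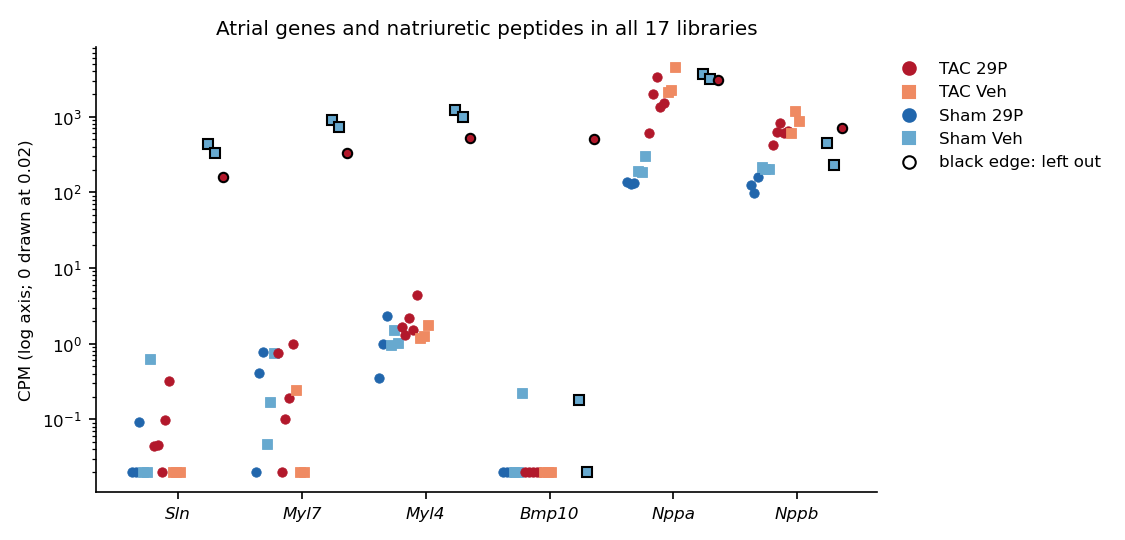
Levels of 4 atrial genes and of both natriuretic peptides in each of the 17 libraries, in CPM on a log axis, with libraries left out drawn with a black edge. Sln, Myl7 and Myl4 were at most 4.43 CPM in the libraries kept and at least 162 CPM in those left out, and the Sham libraries left out reached the Nppa levels of TAC hearts.

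The labelled tissue was checked against its markers. The 9 markers of ventricular cardiomyocytes summed to between 38782 and 50101 CPM in the TAC libraries and between 41499 and 56448 CPM in the Sham libraries, with Myh6, the adult fast myosin heavy chain, the most abundant at a mean of 13322 CPM after TAC and 14825 CPM after Sham. The 3 markers of skeletal muscle used here summed to at most 1.49 CPM. Estimated depth was 18.8 to 22.4 M reads in the TAC libraries and 14.2 to 23.8 M in the Sham libraries, where S14 was the shallowest.

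To show where factors known in cardiomyocytes could bind, the RefSeq promoters (GRCm38.p6, from 250 bases before to 50 bases after the gene start, on the strand of the gene) of 4 cardiomyocyte genes that rose together in the values that follow are printed. A match is a description of the letters only. Capitals mark M-CAT elements (CATTCC, the site of TEAD factors), GATA sites (GATAA), TATA boxes (TATAAA), each on either strand, and the CArG box, the site of serum response factor. The matches shown do not overlap each other.
Nppa, chr4:148000472-148000771, plus strand: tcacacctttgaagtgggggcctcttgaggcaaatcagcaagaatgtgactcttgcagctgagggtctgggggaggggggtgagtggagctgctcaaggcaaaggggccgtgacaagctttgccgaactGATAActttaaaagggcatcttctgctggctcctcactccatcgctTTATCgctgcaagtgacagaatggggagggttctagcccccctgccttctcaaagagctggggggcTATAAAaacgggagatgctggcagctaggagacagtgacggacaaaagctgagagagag
Nppb, chr4:147985650-147985949, plus strand: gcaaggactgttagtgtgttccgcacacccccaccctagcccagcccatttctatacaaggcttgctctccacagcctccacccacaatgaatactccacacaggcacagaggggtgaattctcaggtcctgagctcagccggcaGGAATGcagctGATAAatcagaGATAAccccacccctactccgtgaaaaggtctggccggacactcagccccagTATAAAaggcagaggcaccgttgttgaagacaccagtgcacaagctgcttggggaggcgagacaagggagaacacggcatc
Acta1, chr8:123894726-123895025, minus strand: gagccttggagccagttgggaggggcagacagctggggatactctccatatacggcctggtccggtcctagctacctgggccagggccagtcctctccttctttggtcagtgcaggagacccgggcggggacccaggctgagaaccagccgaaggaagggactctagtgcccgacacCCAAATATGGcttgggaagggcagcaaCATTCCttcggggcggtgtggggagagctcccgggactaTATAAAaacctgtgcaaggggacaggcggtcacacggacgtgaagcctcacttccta
Myh7, chr14:54994577-54994876, minus strand: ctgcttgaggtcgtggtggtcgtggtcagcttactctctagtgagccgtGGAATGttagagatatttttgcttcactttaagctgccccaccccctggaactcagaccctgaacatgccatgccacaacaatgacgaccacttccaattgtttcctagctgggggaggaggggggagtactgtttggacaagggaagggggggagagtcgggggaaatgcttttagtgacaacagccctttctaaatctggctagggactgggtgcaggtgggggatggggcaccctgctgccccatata
Nppa and Nppb each held 2 GATA matches. They began 121 and 75 bases before the RefSeq start of Nppa and 94 and 83 bases before that of Nppb. All distances here are counted from the RefSeq start, which for Nppb and Acta1 differs from the gene coordinates given below. Of 32851 promoters of this length, 25.4% hold a GATA match. Nppb also held an M-CAT match 105 bases before its start. Acta1 held an M-CAT match 46 bases and a CArG match 73 bases before its start, and an M-CAT match is present in 14.7% and a CArG match in 1.63% of all promoters. TATA boxes were found in Nppa, Nppb and Acta1 and in 13.6% of all promoters. Myh7 has 2 overlapping RefSeq promoters, of which the upstream one is shown and holds 1 M-CAT match, and the other, chr14:54994500-54994799, holds none of the motifs.

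TAC against Sham was compared with limma on log2(CPM + 0.1) over 15357 genes, and a gene was called at a Benjamini-Hochberg adjusted p of 0.05 or less. On the deposited scale 8221 genes were called, 53.5% of those tested, with 7784 (50.7%) higher and 437 (2.85%) lower after TAC. Over all genes tested the log2 fold change had a median of 0.34 on this scale, and TMM factors, which centre the bulk of the genes, gave a median of 0.00, a shift of -0.34. With TMM factors 4235 genes (27.6%) were called, 2161 (14.1%) higher and 2074 (13.5%) lower. All 2161 were also called higher on the deposited scale, and all 437 genes called lower there were also lower with TMM factors. An unadjusted p of 0.05 or less was reached by 60.1% of genes on the deposited scale, and 3 genes (0.0195%) were called higher on that scale and lower with TMM factors. A further 1634 genes were called lower with TMM factors and not called on the deposited scale. Changes are on the deposited scale below unless TMM factors are named, and "called on both scales" means past the threshold in the same direction with each.

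The Sham libraries were more concentrated in few genes. Mitochondrial-encoded genes held 27.1 ± 1.83% of CPM in the TAC libraries (SD, n = 8) and 35.0 ± 3.44% in the Sham libraries (SD, n = 6), and the highest TAC library, at 29.4%, lay below the lowest Sham library, at 32.0% (exact permutation test over libraries, two-sided, adjusted p = 0.00233 over 21 library measures, from the smallest p the splits can give, 0.000666). The 50 most abundant genes held 43.0 ± 1.87% and 52.2 ± 3.56% (SD, n = 8 and 6), again with no overlap (exact permutation test, adjusted p = 0.00233). Genes listed at 0 averaged 1566 ± 106 in the TAC and 2336 ± 750 in the Sham libraries (SD, n = 8 and 6), with overlap. This difference passed the test (exact permutation, adjusted p = 0.00509). Sham libraries S14 and S6 stood at the far end, with 3582 and 2762 genes listed at 0 and 40.0% and 38.8% of CPM in mitochondrial-encoded genes. Without S14 and S6, 6075 genes were called higher and 503 lower on the deposited scale, and 1643 higher and 1558 lower with TMM factors, and the deposited median was 0.25. Whether mitochondrial-encoded content or the zeros took part in any single gene's result was not tested.

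The first principal component held 46.4% of the variance and separated the surgeries, with TAC scores from 28.7 to 108 and Sham scores from -173 to -21.8 (exact permutation test over 8 and 6 libraries, adjusted p = 0.00233). Its lowest scores were those of Sham S14, S6 and S15, at -173, -134 and -90.6. These libraries also had the most genes listed at 0 (3582, 2762 and 2444). How much of this component goes with surgery alone was not tested. The second component held 12.8% and did not pass the test (exact permutation, adjusted p = 0.319), and its highest score was that of TAC Veh S16, at 85.1. All TAC libraries lay on the same side of all Sham libraries in 2694 genes (17.5%), with 2598 (16.9%) higher and 96 (0.625%) lower.

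**Figure D2:**
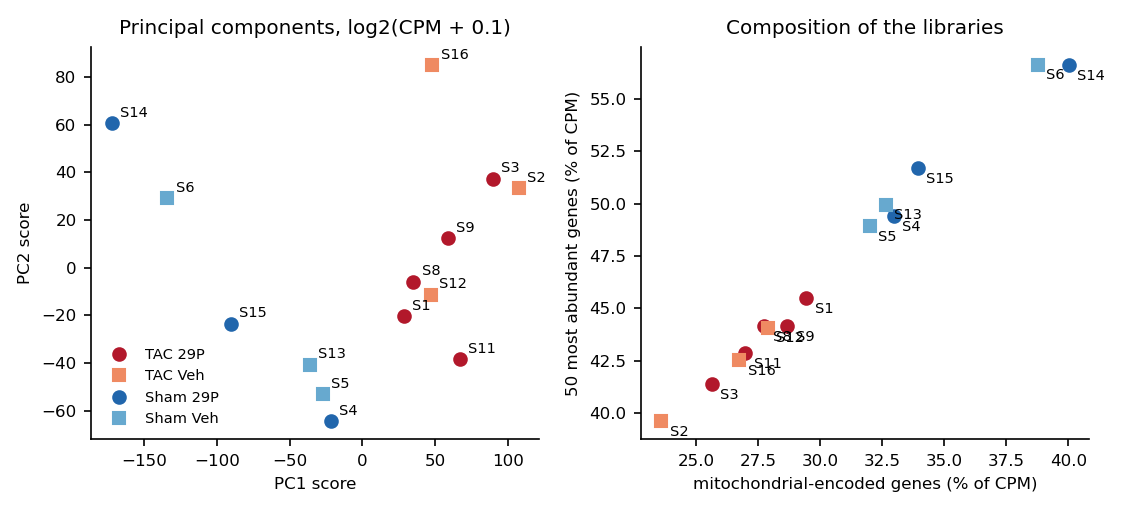
Left, scores of the 14 libraries on the first and second principal components of log2(CPM + 0.1). Right, the share of CPM held by mitochondrial-encoded genes against the share held by the 50 most abundant genes, where every TAC library lies below 30% and every Sham library above 31% of mitochondrial-encoded CPM, and S6 and S14 lie apart from the other Sham libraries in both plots.

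Among fetal and stress genes of cardiomyocytes, Acta1 (mm10, chromosome 8, 123891769 to 123894751), Myh7 (chromosome 14, 54970684 to 54994626), Nppa (chromosome 4, 148000722 to 148002079) and Nppb (chromosome 4, 147985788 to 147987205) were higher in every TAC library. These coordinates come with the deposited values. For Nppb and Acta1 the gene start differs from the RefSeq start used for the promoters. By these coordinates every motif match printed for Nppb lies inside the gene. Acta1, the skeletal α-actin that the adult ventricle makes at a low level, ranged from 1905 to 5763 CPM after TAC with a median of 3262, and from 128 to 369 CPM after Sham with a median of 209. Every TAC library was above every Sham library. Its log2 fold change was 3.87 ± 0.27 (SE, limma, adjusted p = 2.82e-07) and 3.53 with TMM factors. Myh7, the slow β-myosin heavy chain, ranged from 983 to 3292 CPM with a median of 1759.7 after TAC, and from 99.95 to 242 CPM with a median of 119 after Sham. No library crossed, and the log2 fold change was 3.72 ± 0.25 (SE, limma, adjusted p = 2.82e-07), or 3.38 with TMM factors. In bulk tissue a change in the number of cells of a type and a change in RNA per cell cannot be told apart, here and below.

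Nppa was at 601, 2059 and 4498 CPM after TAC (lowest, median and highest) and at 129.7, 161 and 304 CPM after Sham. All TAC libraries were above all Sham libraries, and TAC 29P S1 was the lowest of them. The log2 fold change was 3.48 ± 0.34 (SE, limma, adjusted p = 1.33e-05) and 3.13 with TMM factors. Nppb was at 428, 641 and 1189 CPM after TAC and at 96.8, 181 and 215 CPM after Sham, without overlap, and its log2 fold change was 2.12 ± 0.21 (SE, limma, adjusted p = 1.37e-05) or 1.77 with TMM factors. The promoters printed for Nppa and Nppb hold GATA matches, as do 25.4% of all promoters, and those of Acta1 and Myh7 hold none. Whether these sites took part in the rises was not tested.

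Isoform ratios within a library do not depend on the scale. The log2 ratio of Myh7 to Myh6 was -2.91 ± 0.81 after TAC and -6.77 ± 0.27 after Sham (SD, n = 8 and 6), a difference of 3.86, and that of Acta1 to Actc1, the cardiac α-actin, was -1.07 ± 0.56 and -4.63 ± 0.52, a difference of 3.55. Neither ratio overlapped between the surgeries (exact permutation test, adjusted p = 0.00233 for each). Myh7 and Myh6 are near-identical neighbours and can share reads. Myh6 itself ranged from 10367 to 16506 CPM after TAC and from 10019 to 20476 CPM after Sham, a log2 fold change of -0.13 ± 0.16 (SE, limma, adjusted p = 0.48) that passed the threshold with TMM factors (-0.48, adjusted p = 0.0482).

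Of 26 tested fetal and stress genes, 23 were higher and 1 lower on the deposited scale, and 19 were higher and 1 lower with TMM factors, beside the 50.7% and 14.1% of all genes called higher on the scales in turn. The median log2 fold change of the list was 1.38 (1.04 with TMM factors). Ankrd1, a stretch-responsive protein of the sarcomere and nucleus, averaged 5002 CPM after TAC and 1305 CPM after Sham (log2 fold change 1.92 ± 0.17, SE). Xirp2, an actin-binding protein of the intercalated disc, averaged 3063 and 733 CPM, and Gdf15, a stress-induced circulating cytokine, 5.90 and 0.534 CPM. Rcan1, a target and inhibitor of calcineurin, had a log2 fold change of 1.75, or 1.403 with TMM factors. The single member that fell was Corin, the protease that cleaves pro-ANP to its active form, with means of 103 CPM after TAC and 156 CPM after Sham and no overlap (log2 fold change -0.58 ± 0.09, SE, limma, adjusted p = 0.000315, and -0.93 with TMM factors). Fhl2, which passed on neither scale, had a value of 0.16 that was -0.19 with TMM factors.

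**Figure D3:**
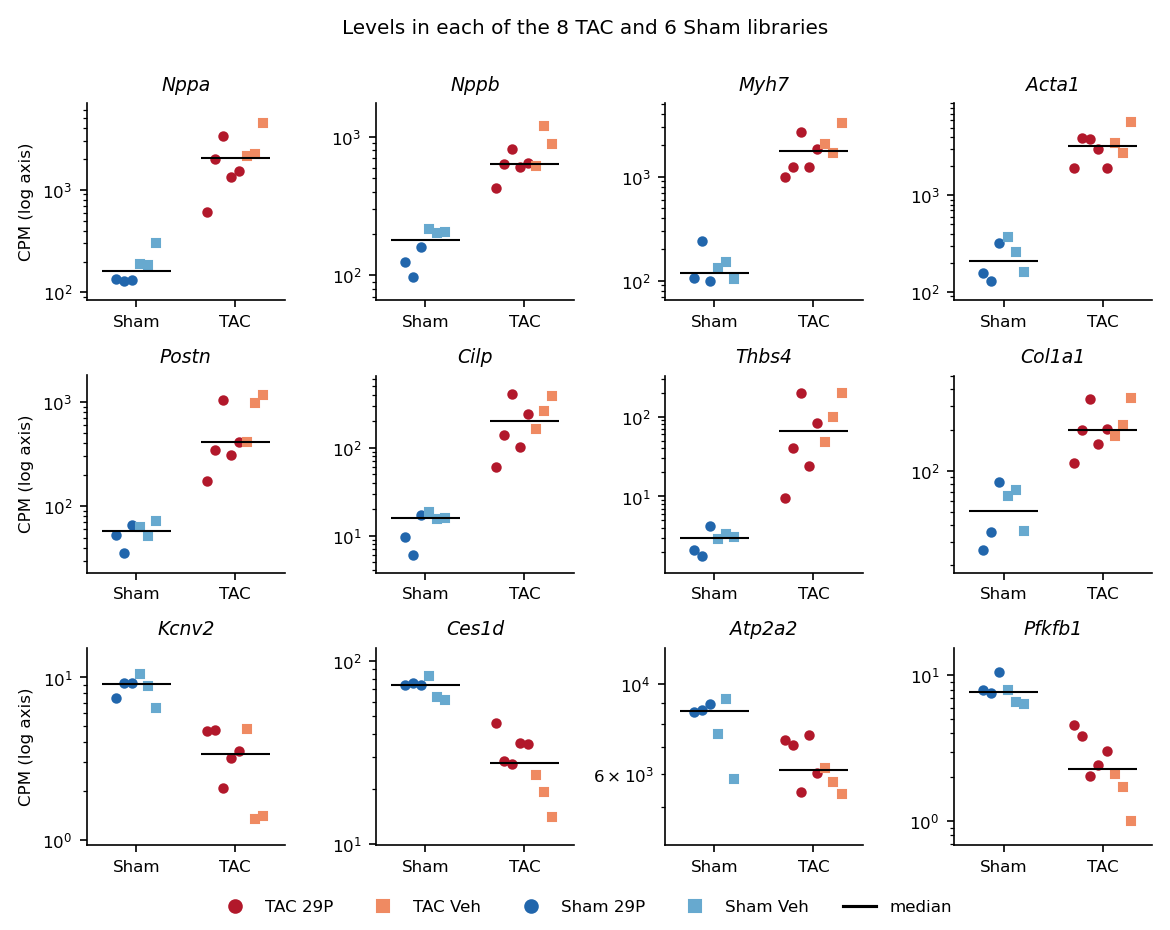
CPM of 12 genes in each of the 14 libraries on log axes, with points for libraries, colours and shapes for surgery and treatment, and a line at the median of each surgery. The top rows show genes that were higher in every TAC library, and the bottom row shows genes that were lower, of which only Atp2a2 overlapped.

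The steepest rises were in genes of the matrix. Among called genes with a mean of at least 1 CPM, no overlap and the same sign with TMM factors, the 12 with the highest log2 fold change included Fmod, Thbs4, Comp, Atp6v0a4, Acta1, Cilp, Ltbp2, Myh7, Tnfrsf11b, Col8a2 and Serpinb1c. Fmod, fibromodulin, a small proteoglycan that binds collagen fibrils, ranged from 2.13 to 83.1 CPM after TAC with a median of 19.7, and from 0.0705 to 1.57 CPM after Sham with a median of 0.661. Its log2 fold change of 4.52 ± 0.78 (SE, limma, adjusted p = 0.00044; 4.24 with TMM factors) was the highest of the 12 and had the widest error. Thbs4, thrombospondin 4, was at 9.66, 65.6 and 199 CPM after TAC and 1.82, 3.02 and 4.24 CPM after Sham (log2 fold change 4.34 ± 0.53, SE, or 4.001 with TMM factors). Cilp, cartilage intermediate layer protein, was at 60.8, 202 and 414 CPM after TAC and 6.04, 15.7 and 18.5 CPM after Sham (3.84 ± 0.38, SE, limma, adjusted p = 1.37e-05, or 3.50 with TMM factors). For each of these genes the TAC libraries spread far more than the Sham libraries, and none crossed.

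Other risers under that rule were Comp, a relative of Thbs4 found in cartilage and tendon (3.99), Ltbp2, a microfibril protein (3.78), Col8a2, a short-chain collagen (3.65), Tnfrsf11b, osteoprotegerin, the decoy receptor of RANKL (3.67), Atp6v0a4, a subunit of the vacuolar proton pump (3.94), and Serpinb1c, a protease inhibitor (3.53), all as log2 fold changes. Tnfrsf11b and Atp6v0a4 were listed at 0 in some Sham libraries, so that their fold changes depend on the constant added. Atp6v0a4 overlaps other annotated genes on both strands, and Serpinb1c has close paralogs.

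The TAC hearts were not uniform in these genes. Over the 12 risers, TAC 29P S1 was the lowest of the 8 TAC libraries for 9 genes, whereas TAC Veh S2 was the highest for 7 and TAC 29P S3 for the other 5. Postn, periostin, a matricellular protein of activated fibroblasts, was at 173 CPM in S1, 1030.1 CPM in S3, 1153 CPM in S2 and 969.9 CPM in S16, and the other 4 TAC libraries lay between 308 and 411 CPM. Sham libraries held 35.5 to 71.3 CPM. The log2 fold change of Postn was 3.16 ± 0.36 (SE, limma, adjusted p = 4.09e-05), or 2.81 with TMM factors.

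Of 31 matricellular and fibroblast activation genes, 28 were higher and none lower on the deposited scale, and 25 higher with TMM factors, beside 50.7% and 14.1% of all genes higher. The list had a median log2 fold change of 2.02 (1.68 with TMM factors). Tnc (tenascin C) averaged 12.4 CPM after TAC and 1.297 CPM after Sham, Cthrc1, a secreted product of activated fibroblasts, 3.26 and 0.153 CPM, and Ccn2, connective tissue growth factor, 297 and 67.5 CPM. Cthrc1 was called in 8 of the 14 fits that left out 1 library. Acta2, smooth muscle α-actin, which also marks myofibroblasts, did not pass (log2 fold change 0.41 ± 0.17, SE, limma, adjusted p = 0.0536; 0.07 with TMM factors). Of 23 fibrillar collagen and collagen-processing genes, 20 were higher on the deposited scale, 18 with TMM factors and none lower on either, beside the same shares of all genes, with medians of 1.43 and 1.09. Col1a1 was at 114, 202 and 343 CPM after TAC and 26.1, 50.4 and 83.2 CPM after Sham, without overlap (2.10 ± 0.27, SE, limma, adjusted p = 9.18e-05). Col3a1 had a log2 fold change of 1.81 and Lox, the enzyme that cross-links collagen, of 2.09. P4ha2, a collagen prolyl hydroxylase, did not pass (0.31, and -0.03 with TMM factors).

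The basement membrane list followed with 18 of 21 higher (14 and 1 lower with TMM factors) and a median of 0.73 (0.39), beside 50.7% and 14.1% of all genes higher. Col15a1 had a log2 fold change of 1.68 and Col4a2 of 1.51. Lamb3, a laminin chain, was lower with TMM factors (-0.58) and did not pass on the deposited scale. Of 24 integrin chains, the receptors that tie cells to these proteins, 23 were higher and none lower on the deposited scale, and 11 higher with TMM factors (medians 0.86 and 0.52), beside the same shares of all genes. Itga11, a collagen receptor chain of fibroblasts, was at 2.50, 5.05 and 7.87 CPM after TAC and 0.761, 1.86 and 2.40 CPM after Sham. The chains of αvβ3, which 29P addresses, were examined by name: Itgb3 had a log2 fold change of 1.03 ± 0.30 (SE, limma, adjusted p = 0.00858) that did not pass with TMM factors (0.70, adjusted p = 0.0578), and Itgav one of 0.45 ± 0.11 (adjusted p = 0.00334) that did not pass with TMM factors (0.11, adjusted p = 0.486).

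Ligands and inhibitors of TGF-β and activin signalling, which drive fibroblasts to make matrix, were examined as a list. Of 27 genes, 16 were higher and none lower on the deposited scale, beside 50.7% of all genes higher, and 11 higher and 2 lower with TMM factors, beside 14.1% and 13.5%. All 3 TGF-β ligands were called on both scales, with log2 fold changes of 1.22 (Tgfb1), 1.24 (Tgfb2) and 1.34 (Tgfb3), as were the activin subunit Inhba (1.43) and the activin-binding Fstl3 (1.63). The receptor Bmpr2 (0.06) and the intracellular inhibitor Smad6 (0.49) did not pass on the deposited scale. Tubulins, which thicken the microtubule network of overloaded cardiomyocytes, were higher in 11 of 13 cases (8 with TMM factors), beside 50.7% and 14.1% of all genes, with Tubb2a at 45.6, 57.1 and 84.2 CPM after TAC and 14.3, 27.9 and 32.1 CPM after Sham. Tubb2a and Tubb2b are close paralogs and can share reads.

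**Figure D4:**
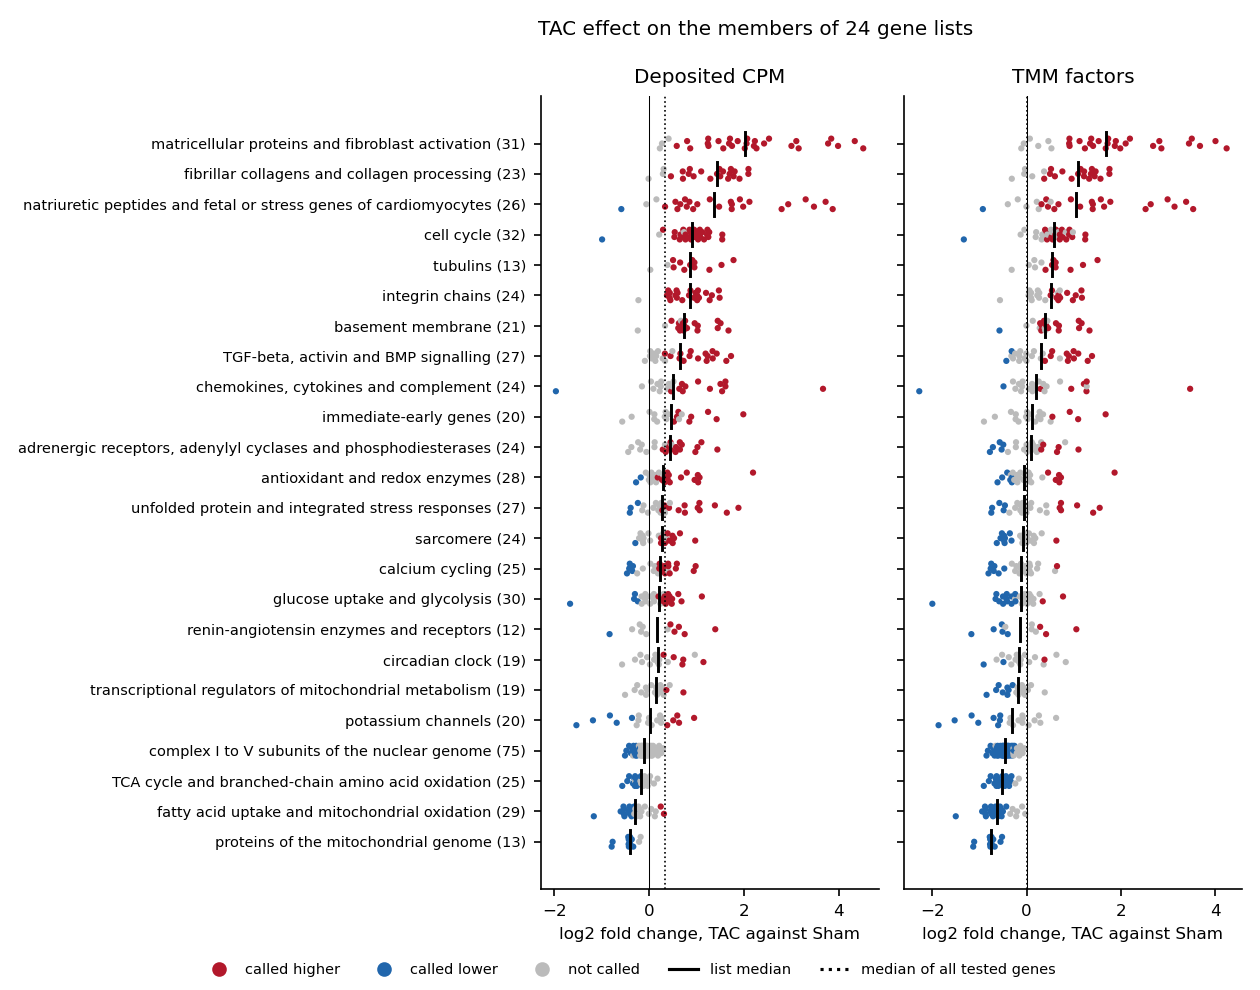
Log2 fold change of every tested member of 24 gene lists (numbers in brackets), TAC against Sham, on deposited CPM (left) and with TMM factors (right), coloured by call, with a bar at the median of each list and a dotted line at the median of all tested genes (0.34 and 0.00). Matrix and fetal lists lie to the right of the dotted line and energy metabolism lists to the left on both scales.

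Genes of oxidative metabolism lay on the other side of the median. Of 29 genes of fatty acid uptake and mitochondrial oxidation, 2 were higher and 14 lower on the deposited scale, and none higher and 23 lower with TMM factors, beside 2.85% and 13.5% of all genes lower on the scales in turn. The list medians were -0.29 and -0.63, beside 0.34 and 0.00 for all genes. Within Veh 15 of the 29 were called lower, beside 1.06% of all genes, and within 29P 6 were, beside 1.52%. No member passed the test of the difference between treatments. Hadhb, the β-subunit of the trifunctional protein, averaged 423 CPM after TAC and 605 CPM after Sham with no overlap (log2 fold change -0.52 ± 0.07, SE, limma, adjusted p = 0.000119, or -0.86 with TMM factors). Decr1, needed for unsaturated fatty acids, averaged 249 and 357 CPM with no overlap. Acaa2, the last thiolase of the pathway, was at 259, 373 and 490.1 CPM after TAC and 391, 606 and 635 CPM after Sham, and its groups overlapped. The rate-setting carnitine transferase Cpt1b was at 0.12 ± 0.12 (SE, limma, adjusted p = 0.401) and -0.22 with TMM factors. Acot1, which cleaves acyl-CoA and has a near-identical neighbour in Acot2, fell by 1.16 ± 0.39 on the log2 scale (SE, limma, adjusted p = 0.0201).

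Of 75 nuclear subunits of complexes I to V, 18 were lower and none higher on the deposited scale, and 64 lower and none higher with TMM factors (medians -0.10 and -0.45). The same 2.85% and 13.5% of all genes stand beside these and the next counts from the 14 libraries. Sdha, the flavoprotein of complex II, averaged 858 CPM after TAC and 1074 CPM after Sham. Cox7a1, the heart and muscle isoform of a complex IV subunit, was at 161, 184 and 224 CPM after TAC and 219, 249 and 343 CPM after Sham (log2 fold change -0.48 ± 0.10, SE, limma, adjusted p = 0.00147). Of 13 proteins encoded in the mitochondrial genome, 11 were lower on the deposited scale and 13 with TMM factors, with medians of -0.41 and -0.75. mt-Nd3 was at 1285, 1788 and 2160.2 CPM after TAC and 2206, 2407 and 4931 CPM after Sham, without overlap. Of 25 genes of the TCA cycle and branched-chain amino acid oxidation, 11 were lower on the deposited scale and 23 with TMM factors, and none were higher, with Dbt, a subunit of the branched-chain ketoacid dehydrogenase, at -0.56. Without Sham S14 and S6 the counts of lower genes were 21 of 29 for fatty acids, 29 of 75 for nuclear subunits, 6 of 13 for mitochondrial proteins and 18 of 25 for the TCA list on the deposited scale. In libraries S1 to S11 alone they were 12 of 29, 7 of 75, 4 of 13 and 5 of 25 in the same order. Of all genes tested, 503 of 15255 were lower without S14 and S6, and 194 of 14949 in S1 to S11.

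In glucose uptake and glycolysis, 14 of 30 genes were higher, a share below the 50.7% of all genes, and 4 were lower, beside 2.85%. With TMM factors 2 of the 30 were higher and 13 lower, beside 14.1% and 13.5% of all genes. Pfkp, the platelet form of phosphofructokinase, was at 73.7, 93.7 and 145 CPM after TAC and 31.1, 45.3 and 64.4 CPM after Sham (log2 fold change 1.11 ± 0.17, SE, limma, adjusted p = 0.000218), and Hk1, hexokinase 1, was called on both scales as well (0.68, and 0.34 with TMM factors). The muscle forms Pfkm (-0.08) and Hk2 (-0.08) did not pass on the deposited scale and were lower with TMM factors. Both subunits of the mitochondrial pyruvate carrier, Mpc1 (-0.30) and Mpc2 (-0.31), fell. Of 19 transcriptional regulators of mitochondrial metabolism, 2 were higher and none lower on the deposited scale, beside 50.7% and 2.85% of all genes. With TMM factors none were higher and 8 lower, beside 14.1% and 13.5%. Ppargc1a, the coactivator PGC-1α, was at -0.51 ± 0.26 (SE, limma, adjusted p = 0.104) and -0.85 with TMM factors (adjusted p = 0.0253). Sham 29P S15 held 264.5 CPM of it and the next Sham library 81.9 CPM, and without S15 the deposited value was -0.19.

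A log2 fold change of -1 or less was called for 46 genes on the deposited scale, against 1103 of at least 1. With TMM values past the same limits, 128 genes were called lower and 385 higher on both scales. By the rule used for the risers, the 12 genes with the most negative log2 fold change included Ccl11, Cngb3, Pfkfb1, Kcnv2, Aqp4, Penk, Ces1d, Acsm5, Phkg1, Ctla4 and Kcnj3. Ccl11, eotaxin, was at 0.293, 0.657 and 0.983 CPM after TAC and 1.47, 2.44 and 4.72 CPM after Sham (-1.96 ± 0.30, SE, limma, adjusted p = 0.000198). It was low in every library, and the groups did not overlap. Pfkfb1, a bifunctional enzyme that sets fructose 2,6-bisphosphate, was at 0.998, 2.26 and 4.56 CPM after TAC and 6.35, 7.73 and 10.6 CPM after Sham (-1.66 ± 0.26, SE). Phkg1, the catalytic subunit of muscle phosphorylase kinase, was at 5.06, 6.96 and 9.99 CPM after TAC and 13.1, 17.9 and 22.6 CPM after Sham (-1.34 ± 0.16, SE), and overlaps other annotated genes on both strands. Log2 fold changes of the others were -1.70 (Cngb3, a cyclic nucleotide-gated channel subunit), -1.49 (Aqp4, a water channel), -1.48 (Penk, proenkephalin), -1.40 (Ces1d, a carboxylesterase), -1.37 (Acsm5, a medium-chain acyl-CoA synthetase) and -1.21 (Ctla4, an inhibitory receptor of T cells). Cngb3, Ces1d and Ctla4 each overlap another annotated gene on the same strand, from which their reads were not told apart.

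Ion handling genes held several of the larger falls. Kcnv2, a modifier subunit of voltage-gated potassium channels, was at 1.33, 3.37 and 4.84 CPM after TAC and 6.49, 9.07 and 10.6 CPM after Sham (-1.53 ± 0.28, SE, limma, adjusted p = 0.000631, or -1.87 with TMM factors). Kcnj3, a G protein-gated inward rectifier, was at 16.4, 26.9 and 36.7 CPM after TAC and 48.0, 54.4 and 92.8 CPM after Sham (-1.18 ± 0.19, SE, or -1.53 with TMM factors). Kcnd2, a pore subunit of the transient outward current (-0.82), and Kcnj2, the main inward rectifier (-0.68), also fell. Of 20 potassium channel genes, 5 were higher and 5 lower on the deposited scale, beside 50.7% and 2.85% of all genes, and none higher and 8 lower with TMM factors, beside 14.1% and 13.5%. In the calcium cycle, Pln (phospholamban) was at 3718, 4650.2 and 5037 CPM after TAC and 5142, 5762 and 7882 CPM after Sham with no overlap (-0.42 ± 0.11, SE, limma, adjusted p = 0.00553, or -0.76 with TMM factors). Atp2a2, the SERCA2 pump that phospholamban restrains, was at 5363, 6135 and 7481 CPM after TAC and 5829, 8591 and 9194 CPM after Sham (-0.35 ± 0.12, SE, limma, adjusted p = 0.0218, or -0.70 with TMM factors), where only Sham Veh S6 lay among the TAC libraries. Hrc (-0.46), Trdn (-0.41) and Ryr2 (-0.34), which form the release complex with their partners, fell on both scales. Cacna1g, a T-type calcium channel of the fetal ventricle, rose on both (0.98). Of 25 calcium cycling genes, 13 were higher and 5 lower on the deposited scale, beside 50.7% and 2.85% of all genes. With TMM factors 1 was higher and 7 lower, beside 14.1% and 13.5%. In libraries S1 to S11 alone none of the 25 was called lower on the deposited scale.

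Of 24 sarcomere genes, 11 were higher and 1 lower on the deposited scale, a share higher near the 50.7% of all genes. With TMM factors 1 was higher and 9 lower, beside 14.1% and 13.5%, and the list median was 0.28 and -0.07. Des, desmin, was higher on both scales (0.97 and 0.63) and Tnni3, the cardiac troponin I, lower on both (-0.29 and -0.63). Actc1 was higher on the deposited scale (0.32) and -0.02 with TMM factors. Tnni3 was called in only 3 of the 14 fits that left out 1 library. In the adrenergic list, 14 of 24 genes were higher and none lower on the deposited scale, close to the share of all genes. With TMM factors 5 of them were higher and 5 lower, beside 14.1% and 13.5% of all genes. Grk5, a kinase that desensitises β-receptors, was at 46.6, 67.3 and 82.4 CPM after TAC and 23.2, 33.1 and 41.2 CPM after Sham (1.02 ± 0.15, SE), and the receptor gene Adrb1 had a log2 fold change of -0.15 that passed only with TMM factors (-0.50).

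Of 27 genes of the unfolded protein and integrated stress responses, 12 were higher, a share below the 50.7% of all genes, and 3 lower, beside 2.85%, on the deposited scale. With TMM factors 6 were higher and 5 lower, beside 14.1% and 13.5%. The 6 genes called higher on both scales were Mthfd2, Phgdh, Pycr1, Aldh18a1, Asns and Trib3, which, apart from the pseudokinase Trib3, encode enzymes of one-carbon, serine, proline and asparagine synthesis and are known targets of ATF4. Mthfd2 was at 6.79, 13.4 and 19.4 CPM after TAC and 1.57, 3.24 and 5.28 CPM after Sham (log2 fold change 1.89 ± 0.26, SE, limma, adjusted p = 0.000126). The genes called lower on both scales were Hspa5 (-0.39), the chaperone BiP, Herpud1 (-0.41) and Dnajb9 (-0.24), all of which act in folding or degradation at the endoplasmic reticulum. Pdia4, a folding enzyme of the same compartment, did not pass (0.44, adjusted p = 0.0507, limma). With each library left out in turn, Herpud1 was called in 13 of 14 fits and Dnajb9 in 6. Of 28 antioxidant and redox genes, 15 were higher and 2 lower (6 and 6 with TMM factors), beside 50.7% of all genes higher on the deposited scale and, with TMM factors, 14.1% higher and 13.5% lower. Nox4, an oxidase that makes hydrogen peroxide, rose (2.19 ± 0.41, SE, limma, adjusted p = 0.000661), and mitochondrial Sod2 (-0.27) and Prdx3 (-0.17) fell on both scales, Prdx3 in only 4 of the 14 fits that left out 1 library.

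Of 32 cell cycle genes, 29 were higher and 1 lower on the deposited scale and 17 higher and 1 lower with TMM factors (medians 0.91 and 0.58), beside 50.7% of all genes higher and 2.85% lower on the deposited scale and 14.1% and 13.5% with TMM factors. Within Veh 3 of the 32 were called higher, beside 15.5% of all genes, and within 29P 24 were, beside 33.1%, and no member passed the test of the difference between treatments. Mki67 was at 14.2, 20.4 and 28.1 CPM after TAC and 6.63, 10.7 and 13.2 CPM after Sham, without overlap (0.95 ± 0.19, SE, limma, adjusted p = 0.00116). E2f1, a factor that starts replication genes, was at 1.74, 2.31 and 3.29 CPM after TAC and 0.211, 0.973 and 1.35 CPM after Sham. Cenpf, a kinetochore protein, averaged 10.2 CPM after TAC and 21.9 CPM after Sham and was the member that fell (-0.99 ± 0.21, SE, limma, adjusted p = 0.00173). It was not called with all 17 libraries (-0.48, adjusted p = 0.171), nor in S1 to S11 alone. Of 20 immediate-early genes, 8 were higher on the deposited scale, a share below the 50.7% of all genes, and 4 with TMM factors, beside 14.1%. Egr2 had a log2 fold change of 1.99, while Fos (-0.56) did not pass on either. Of 19 clock genes, 5 were higher and none lower on the deposited scale and 1 higher and 2 lower with TMM factors, each a share below that of all genes. Among chemokines, cytokines and complement, 12 of 24 were higher, a share at that of all genes, and 1, Ccl11, lower. With TMM factors 6 of the 24 were higher and 2 lower, beside 14.1% and 13.5% of all genes. C4b was at 11.2, 15.3 and 35.9 CPM after TAC and 2.67, 6.07 and 7.76 CPM after Sham. Of 12 renin-angiotensin genes, Ace, Anpep, Ctsa, Atp6ap2 and Enpep were higher and Mme lower on the deposited scale, a share higher below the 50.7% of all genes, and with TMM factors 3 were higher and 5 lower, beside 14.1% and 13.5%.

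Markers of other cells moved with surgery and stand beside these results. Summed macrophage markers ranged from 283 to 464.6 CPM after TAC and from 123 to 260 CPM after Sham, a log2 difference of 0.90 with no overlap (exact permutation test, adjusted p = 0.00233), and 8 of 9 were called higher (7 with TMM factors), among them Cd68 (1.11). Fibroblast markers differed by 0.65 and endothelial markers by 0.61 in summed log2 CPM (exact permutation test, adjusted p = 0.0028 for each), with 7 of 7 higher in both lists on the deposited scale, and with 2 of 7 in each with TMM factors. Pericyte and smooth muscle markers were 0.30 higher on the deposited scale (exact permutation test, adjusted p = 0.0028) and -0.05 with TMM factors. The 4 B cell markers that could be tested were higher (3 with TMM factors), with Cd79a the first at 1.77, whereas the T cell markers Cd3d, Cd3e, Cd3g and Cd8a did not pass the filter on low values. Beside these marker counts, 50.7% of all genes were called higher on the deposited scale and 14.1% with TMM factors. Schwann cell markers differed by -0.48 (exact permutation test, adjusted p = 0.00932). With TMM factors the summed differences were 0.56 for macrophage, 0.31 for fibroblast, 0.27 for endothelial and -0.82 for Schwann cell markers, of which the endothelial one no longer passed the threshold. Ventricular cardiomyocyte markers differed by -0.11 (exact permutation test, adjusted p = 0.231) on the deposited scale and by -0.45 with TMM factors (adjusted p = 0.00233). Neutrophil, erythroid, adipocyte, mesothelial and skeletal muscle markers did not pass the adjusted test on the deposited scale. The part of these cells in the results on matrix, metabolism and cell cycle was not tested.

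Pooling of the treatments was examined with a test of the difference itself. The TAC effect in 29P libraries minus that in Veh libraries passed an adjusted p of 0.05 for 0 of 15357 genes (limma, smallest adjusted p = 0.984), and 576 genes (3.75%) passed without adjustment. This does not show that the treatments respond alike. Within Veh, from 3 TAC and 3 Sham libraries, 2375 genes (15.5%) were higher and 163 (1.06%) lower. Within 29P, from 5 TAC and 3 Sham libraries, 5087 (33.1%) were higher and 233 (1.52%) lower. The arms share no library, and 1763 genes were called in both, all with the same sign, which is 69.5% of the Veh calls and 33.1% of the 29P calls. Over all genes 83.7% had the same sign, and the medians were 0.33 within Veh and 0.36 within 29P. With TMM factors 692 genes were called in both, all with the same sign, beside 74.0% of all genes. Both arms take their spread from the 14 libraries together, and the 6 Veh libraries fitted alone gave 1261 genes higher and 78 lower. Nppa had a log2 fold change of 3.64 within Veh and 3.53 within 29P, Acta1 of 3.95 and 3.91, Cilp of 3.93 and 3.93, Postn of 3.64 and 2.92, Ccn2 of 2.95 and 1.41, and Acot1 of -2.43 and -0.34, none of which passed the test of a difference. By unadjusted p, the genes first in order were Trim6, Acot1 and Ms4a1 where the signed value within 29P was above that within Veh, and Cenpk, Rbm24 and Cry1 where it was below, with an adjusted p of 0.984 for each (limma). Cenpk, a centromere protein, had log2 fold changes of 2.25 within Veh and -0.30 within 29P, and Cry1, a repressor of the clock, of 0.43 and -0.65.

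**Figure D5:**
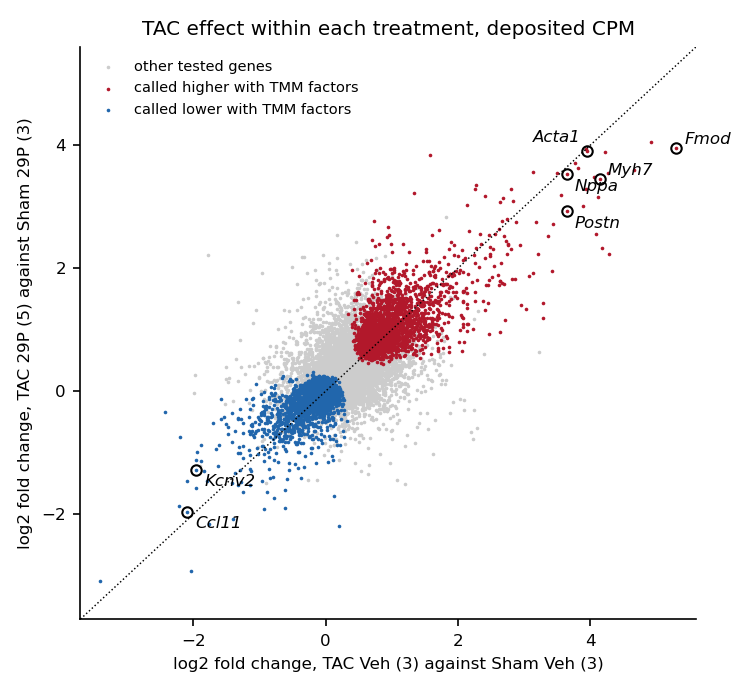
Log2 fold change of TAC against Sham within Veh (horizontal) and within 29P (vertical) for 15357 genes on deposited CPM, coloured by the pooled call with TMM factors, with a dotted line of equality. Among the genes labelled in the plot, Ccl11 (-2.10 and -1.96) lies near the line and Fmod (5.30 and 3.95) to the right of it. The colours come from the same libraries as both axes.

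The labels hold several runs of animal numbers, and the surgeries are not spread evenly over them: S1 to S11 gave 6 TAC and 3 Sham libraries, and the runs that follow gave 1 TAC with 2 Sham and 1 TAC with 1 Sham, too few to test alone. Within S1 to S11, 5084 genes were higher and 194 lower, and the log2 fold changes were 3.73 for Acta1, 3.88 for Myh7, 3.22 for Nppa, 2.86 for Postn and -1.40 for Kcnv2, all still called. Atp2a2, at -0.29, was not (limma, adjusted p = 0.195), nor were Pln and Ryr2, and none of the 25 calcium cycling genes was called lower there, against 5 with the 14 libraries. Penk, Actc1 and the Schwann cell marker Cdh19 also lost their calls. Of the 154 named genes tested in S1 to S11, 19 came out weaker than with the 14 libraries, and not all are named here.

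Leaving out the libraries with atrial transcripts moved some genes more than others. Of the 8221 genes called with 14 libraries, 7728 (94.0%) were also called with all 17, which is 87.9% of the 8796 calls with 17, and none changed sign. For 40 genes the log2 fold change differed by over 0.5. Nppa had a log2 fold change of 2.48 with 17 libraries (limma, adjusted p = 0.00336), and S19 and S20, the Sham libraries left out, held 3670.2 and 3101 CPM of it, within the range of the TAC libraries kept. Nppb had 1.88. Dkk3, a secreted protein related to Wnt inhibitors, was at 3.93, 16.4 and 26.3 CPM after TAC and 1.41, 2.299 and 4.01 CPM after Sham in the 14 libraries (2.47 ± 0.38, SE, limma, adjusted p = 0.000214) and was not called with 17 (1.52, adjusted p = 0.148). Plekha7, a junction protein (1.09 with 14 and 0.42 with 17), and Cilp2, a relative of Cilp (2.46 and 1.399), were likewise called with the 14 libraries and not with 17, and Cilp2 was called in 8 of the 14 fits that left out 1 library. Nrg1, the growth factor neuregulin 1, was called with 17 (1.14) and not with 14 (0.58 ± 0.30, SE, limma, adjusted p = 0.116). The choice of libraries was made on atrial genes, so these differences describe the choice and do not support it.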

How the data were processed

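RNA from the left ventricular apex was sequenced from 17 mice. Per the paper's methods and the labels, the authors used Partek Flow with the aligner STAR 2.3.7 and the mm10 genome, annotated genes with Genocode 25 and deposited CPM with 0.0001 added for 21798 genes. The counting tool and strand setting are not given in the sources used here. Before deposit the authors left out a TAC Veh library that grouped with Sham and a pair of shallow libraries. The constant was subtracted. Depth was estimated from the smallest step between low CPM values in each library, of which 80.4 to 83.5% of low values were whole multiples within 0.02, and reads were not recovered and no count test was run.

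Genes with at least 0.5 CPM in at least 6 of the 14 libraries were fitted with limma 3.58.1 (trended variance, R 4.3.3) on log2(CPM + 0.1), which understates changes of low genes. Surgery was the term in the fit, and 1 mean per group was used for the test between treatments and for effects within treatments. TMM factors (30% and 5% trims) were computed on CPM. Library measures were tested with exact permutation (scipy 1.17.1). On simulated data with 200 changed genes, this comparison of 15357 genes called 33.7% of 1.4-fold, 85.1% of 2-fold and 97.6% of 4-fold changes. Signs were random there, and no difference in library composition was simulated. The data gave 8221 calls, 7784 of them higher, so that these shares need not hold for them. Members and gene lists were chosen with earlier results of these data known. Named genes were the 12 steepest each way (called, mean of at least 1 CPM, no overlap, same sign with TMM factors, unnamed symbols passed over), up to 3 called members and the largest uncalled member of each list, fixed genes such as Nppa, 3 each way by the smallest p between treatments, and 3 each that moved most between calls with 14 and 17 libraries. Some genes that the rule selected are not reported here. Other members are named for their role or after their values were seen. Promoters are from RefSeq. The gene coordinates deposited with the values were compared with the GENCODE vM21 annotation (mm10), where 21119 of 21250 gene symbols had the same start. The RefSeq starts were not part of that comparison. Overlapping genes were not told apart without strand. Alternatives were another scaling, constant, filter, threshold, covariate and set of libraries.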

Additional observations from a re-analysis of the deposited data

Results flagged for a closer look

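Values that stood apart from their own group were looked for in 114 groups of values, and 3 were found, no more than the 1 in 20 that chance gives. The summed neutrophil markers reached 4.12 (log2 CPM) in TAC 29P S3, with the next TAC library at 1.91. Kcnj3 reached 6.54 (log2 CPM) in Sham 29P S14, with the next Sham library at 5.80. Ppargc1a reached 8.05 (log2 CPM) in Sham 29P S15, with the next Sham library at 6.36.

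Sln, Myl7 and Myl4 chose the libraries left out, so that their gap to the libraries kept was set by that choice and is given as a description. Sln was at 162, 441 and 332 CPM in S18, S19 and S20, against a maximum of 0.626 CPM in the libraries kept. Myl7 was at 335, 895 and 723 CPM, against 1.002 CPM, and Myl4 at 518, 1207 and 978 CPM, against 4.43 CPM. Bmp10, which the choice did not use, was at 514 CPM in S18, against 0.224 CPM.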

How the results depend on the processing

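No paired analysis was possible because the groups share no replicate number. The counts of genes higher and lower (7784 and 437) became 2161 and 2074 with TMM factors, 2193 and 2049 with median-of-ratios factors, 4460 and 943 with totals that leave out mitochondrial-encoded genes, 1261 and 78 in Veh libraries alone, 4678 and 222 in 29P libraries alone, and 5084 and 194 in S1 to S11 alone. With TMM factors and without Sham S14 and S6, an alternative chosen after seeing the data, they were 1643 and 1558. Under the other constants, filters, thresholds and covariates, all 17 libraries, and without S14 and S6 on the deposited scale (also chosen after seeing the data), they stayed between 6075 and 8661 higher and between 354 and 564 lower. Leaving out each library in turn gave 6871 to 7995 higher and 362 to 479 lower, and 6578 genes were called in all 14 such fits. The difference between treatments passed for 0 genes by adjusted p in every fit run and for 576 by unadjusted p.

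Of the 117 named genes called, 106 were called in all 14 fits that left out a library. Ryr2 was not called without Sham Veh S5 (-0.29, adjusted p = 0.0508), nor Actc1 without Sham Veh S6 (0.26, adjusted p = 0.057). Actc1 turned to -0.0238 with TMM factors, to -0.0203 with median-of-ratios factors and to -0.10 with TMM factors without S14 and S6, where Nrf1 turned to -0.0530. With TMM factors the summed log2 difference of pericyte and smooth muscle markers was -0.046, of endothelial markers 0.27 and of cardiomyocyte markers -0.45. In S1 to S11 the difference in genes listed at 0 was -514 and in Schwann cell markers -0.28, neither past the threshold. With the 14 libraries they were -770 and -0.48, both past it. Leaving out each library gave 0.0937 to 0.150 percentage points for haemoglobin genes, 0.60 to 1.03 for erythroid markers and 0.80 to 1.47 for neutrophil markers, which passed the threshold without TAC 29P S9 for the first and second (0.150 and 1.02) and without Sham 29P S15 for the third (1.47). The cause of these changes was not tested. Genes under about 1 CPM rest on few reads at 14.2 to 23.8 M per library.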
